A study of Homo sapiens with 16 samples.

Results

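The clustered protocadherin genes were taken as all protein-coding genes on human chromosome 5 whose symbols begin with PCDHA, PCDHB or PCDHG. There were 53 of them among 20033 protein-coding genes in the GRCh38.p14 annotation, in a span of 726.8 kb at chr5:140786140-141512975. They comprised 13 alpha, 16 beta, 12 gamma A and 7 gamma B genes, and 5 C-type genes (PCDHAC1, PCDHAC2, PCDHGC3, PCDHGC4 and PCDHGC5). The assay was ATAC-seq in MDA-MB-231, a line of human breast adenocarcinoma cells labelled as wild type. In this assay an added transposase inserts adapters where chromatin is accessible. The groups had 4 samples each: selected cells on soft gel, selected cells on stiff gel, ancestral cells on soft gel and ancestral cells on stiff gel. Gels were collagen-coated polyacrylamide of 1 kPa (soft) or 308 kPa (stiff), and the selection protocol ran for 75 days of repeated passage. The study's design calls the selected cells soft-selected. The labels do not say whether the selected population was cloned, whether the 4 samples of a group were separate cultures, or how long the cells of each group stood on the gel that names it.

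The authors deposited 1 list of peaks per group, so each group has 1 value per site. No replicate error, p-value or standard deviation can be given between groups, and no difference below has a replicate check. The lists held 129755 peaks for selected cells on soft gel, 122591 for selected cells on stiff gel, 109578 for ancestral cells on soft gel and 116043 for ancestral cells on stiff gel. Their median pileups, the number of reads or fragments stacked at a peak's summit, were 51, 56, 111 and 132 in that order. Read totals are not among the deposited columns, so each pileup is also given over the median of its own list. A lower pileup can come from fewer cells with an open site or from less opening per cell, and these cannot be told apart in bulk chromatin. Of marker genes with a usable start, the mesenchymal markers VIM, CAV1 and ZEB1 had a start peak in every list. The blood markers PTPRC and CD3D had none in any list. Of 3 luminal epithelial markers with a usable start, GATA3 and PGR had a start peak in all 4 lists and the estrogen receptor gene ESR1 had none. Among neuronal markers, SYT1 and MAP2 had a start peak in all 4 lists. TUBB3 had one in both selected lists and was undetermined in the ancestral lists. RBFOX3 had one in the ancestral lists, with pileups of 66 and 86 on soft and stiff gel, and none in either selected list.

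Clustered protocadherins are cadherin-related adhesion proteins of the cell surface, best known for giving single neurons distinct surface identities. In the alpha and gamma clusters each gene has its own promoter and its own long first exon, which encodes the cadherin repeats, the membrane span and a short cytoplasmic part. This exon is spliced to constant exons at the end of the cluster, whereas beta genes have no constant exons. Most promoters carry a conserved sequence element with a CGCT core, and CTCF and cohesin are known to loop chosen promoters to distant enhancers. The C-type genes are regulated differently from the others and are known for broader use among neurons. In the annotation 15 genes of the alpha cluster shared the end at position 141012347 and 22 genes of the gamma cluster shared the end at 141512975, while each beta gene had an end of its own.

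The promoter sequences below are shown because they hold the bases CGCT in front of starts that were open in every list, open in some lists or open in none. These bases alone do not show that a promoter has the conserved element. Each run holds the 120 bases before the annotated start, from the RefSeq promoter table of GRCh38.p14, and capitals mark CGCT on the gene's own strand.
PCDHA4 (chr5:140806948-140807067, + strand): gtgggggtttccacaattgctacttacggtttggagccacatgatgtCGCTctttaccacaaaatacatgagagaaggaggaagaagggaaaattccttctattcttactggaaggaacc
PCDHAC1 (chr5:140926179-140926298, + strand): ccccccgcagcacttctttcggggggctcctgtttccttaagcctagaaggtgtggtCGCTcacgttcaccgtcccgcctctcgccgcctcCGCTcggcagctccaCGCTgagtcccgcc
PCDHAC2 (chr5:140966356-140966475, + strand): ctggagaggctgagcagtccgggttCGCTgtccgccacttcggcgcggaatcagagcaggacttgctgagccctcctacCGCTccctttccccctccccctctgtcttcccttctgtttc
PCDHB2 (chr5:141094495-141094614, + strand): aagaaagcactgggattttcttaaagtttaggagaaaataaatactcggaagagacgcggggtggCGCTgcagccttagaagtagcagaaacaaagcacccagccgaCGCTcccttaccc
PCDHB10 (chr5:141192233-141192352, + strand): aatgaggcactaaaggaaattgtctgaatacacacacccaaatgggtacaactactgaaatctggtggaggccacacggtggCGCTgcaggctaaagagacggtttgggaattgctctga
PCDHB13 (chr5:141213799-141213918, + strand): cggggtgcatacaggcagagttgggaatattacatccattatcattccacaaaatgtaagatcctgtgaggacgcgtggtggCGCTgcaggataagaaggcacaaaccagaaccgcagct
PCDHGA7 (chr5:141382622-141382741, + strand): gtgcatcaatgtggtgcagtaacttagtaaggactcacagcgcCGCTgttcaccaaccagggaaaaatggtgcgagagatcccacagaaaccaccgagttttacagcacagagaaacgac
PCDHGB1 (chr5:141349979-141350098, + strand): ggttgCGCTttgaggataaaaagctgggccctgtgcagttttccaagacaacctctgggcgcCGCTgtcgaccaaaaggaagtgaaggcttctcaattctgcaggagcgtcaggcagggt
PCDHGC3 (chr5:141475846-141475965, + strand): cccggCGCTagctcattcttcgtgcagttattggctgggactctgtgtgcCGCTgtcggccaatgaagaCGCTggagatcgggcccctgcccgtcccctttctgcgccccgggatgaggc
PCDHGC4 (chr5:141484910-141485029, + strand): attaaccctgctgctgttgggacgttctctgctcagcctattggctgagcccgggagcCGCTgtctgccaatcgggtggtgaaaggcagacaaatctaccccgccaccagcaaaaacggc
PCDHA4 stands for the alpha promoters and had no start peak in any list. PCDHAC2 and PCDHB2 had a start peak in both selected lists and in neither ancestral list. PCDHAC1, PCDHB10, PCDHB13, PCDHGB1 and PCDHGC3 had a start peak in all 4 lists. PCDHGA7 and PCDHGC4 held CGCT and had no peak in any list.

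The promoter table held 47 of the 53 genes, all on the + strand. PCDHA3, PCDHA13, PCDHB6, PCDHB11, PCDHGA12 and PCDHGC5 are not in it and were read as + like their neighbours. CGCT on the gene's strand was present in 46 of 47 windows of 300 bases, all but that of PCDHA9, against 54.1% of 27326 promoters (69.4% on either strand). In 42 of the 47 it began between 81 and 29 bases before the start, a range that held CGCT in 17.2% of all promoters. The bounds of this range are positions of the members' own CGCT, so the comparison is a description. The bases around the core differed by subfamily. ATGATGTCGCT was present in 8 of 11 alpha promoters and in 0.0293% of all promoters on either strand, a share made up of these same 8. GGTGGCGCT was present in 13 of 14 beta promoters and in 0.523% of all promoters on either strand. GCGCCGCTGT was present in 5 of 11 gamma A and 4 of 7 gamma B promoters, against 0.121% of all promoters on either strand. These longer forms contain the CGCT core and are the most frequent bases around it in each subfamily's own promoters, so their counts are descriptions. No form was taken from C-type promoters, and none of the 4 C-type promoters with an entry held one.

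Most clustered protocadherin starts had no peak. A start peak, with its summit within 500 bp of the annotated start, was present at 15 members in selected cells on soft gel, 14 in selected cells on stiff gel, 11 in ancestral cells on soft gel and 12 in ancestral cells on stiff gel. Over 14671 protein-coding genes with a known strand and a complete window the shares were 59%, 60.2%, 56.8% and 58%. The members' shares were 28.3%, 26.4%, 20.8% and 22.6%, below the background in every list. A start peak was found in all 4 lists at 9 members (52% of all genes), and 17 members had one in at least 1 list. The 9 were PCDHAC1, PCDHB9, PCDHB10, PCDHB11, PCDHB13, PCDHGB1, PCDHGB2, PCDHGC3 and PCDHGC5. They thus included 3 of 5 C-type, 4 of 16 beta, 2 of 7 gamma B, 0 of 12 gamma A and 0 of 13 alpha genes. The 4 beta genes lie near each other in 1 stretch of that cluster, where PCDHB12, which lies between PCDHB11 and PCDHB13, had no start peak in any list.

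**Figure D1:**
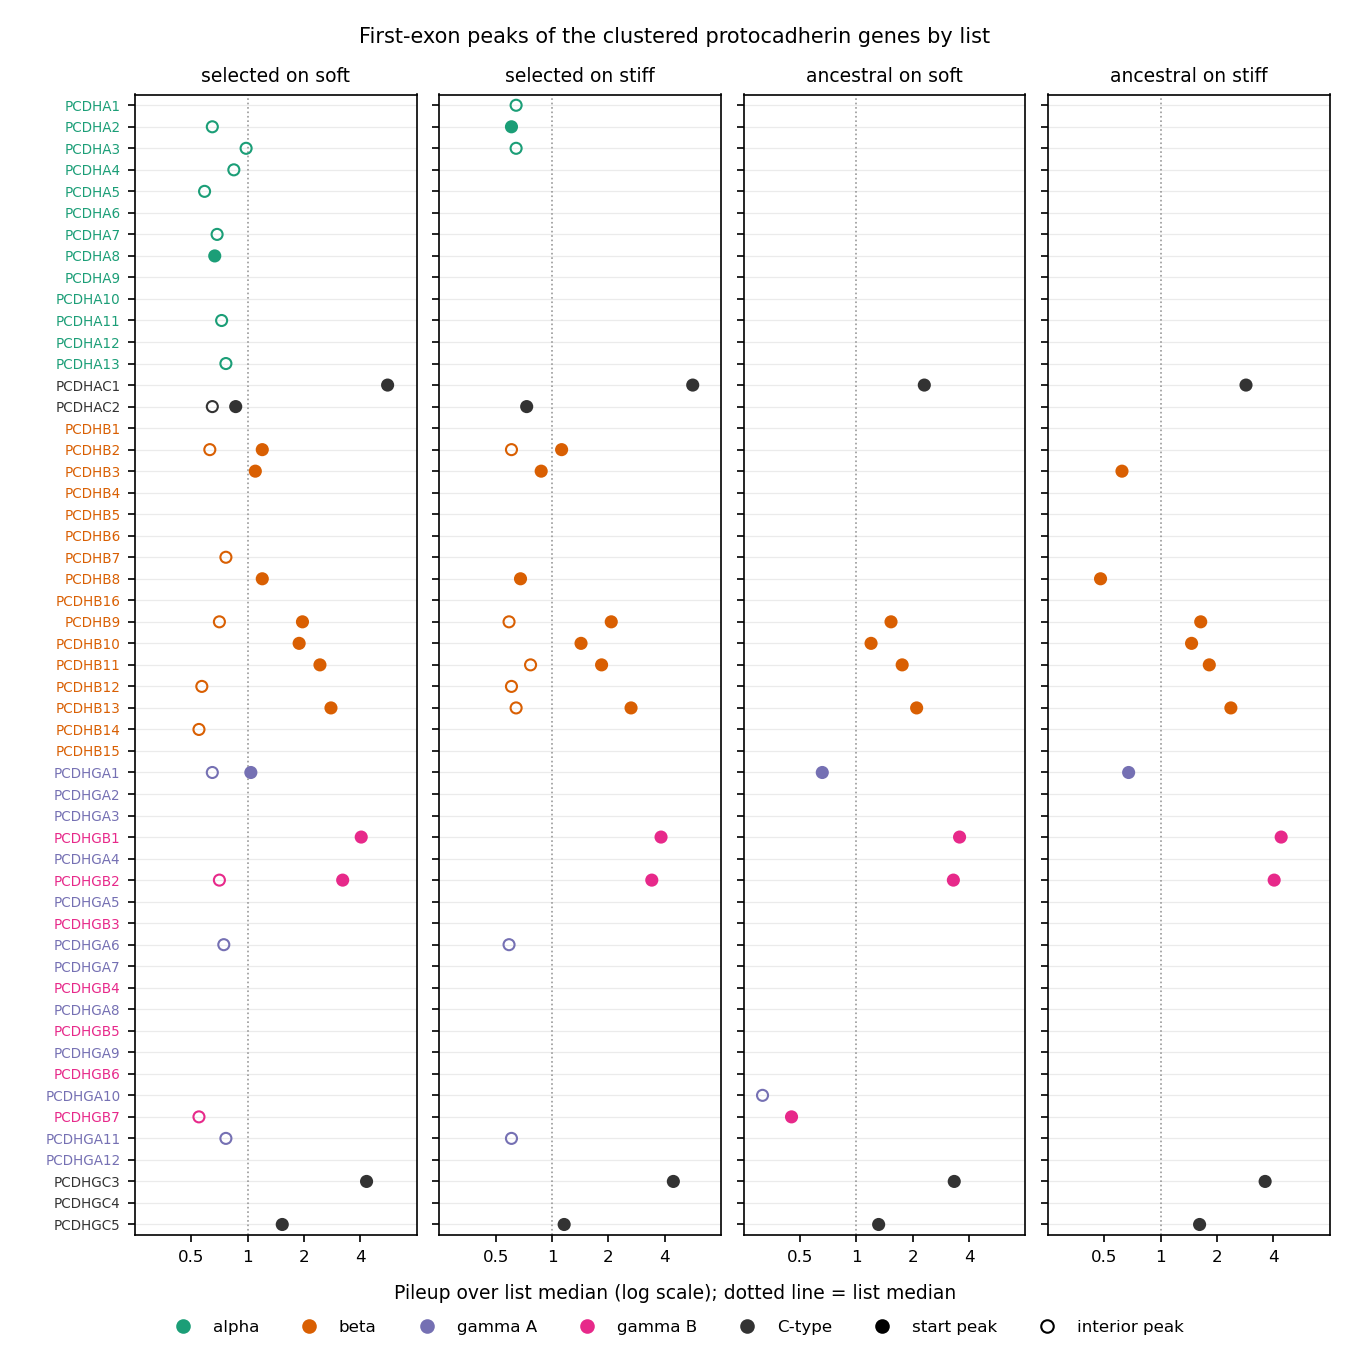
Pileup over list median (log scale) of every peak in the first-exon window of the 53 members, 1 panel per list; filled points are start peaks and open points interior peaks, coloured by subfamily. Alpha genes have points in the selected lists and none in the ancestral lists, and PCDHAC1 stands highest in both selected lists.

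The strongest member starts of the selected lists were those of the C-type genes PCDHAC1 and PCDHGC3. PCDHAC1, the C-type gene that follows the alpha genes, had a start pileup of 285 in selected cells on soft gel and 316 in selected cells on stiff gel, against 256 in ancestral cells on soft gel and 377 in ancestral cells on stiff gel. Over the list median these were 5.59 and 5.64 in the selected lists and 2.31 and 2.86 in the ancestral lists. Both selected values lay above both ancestral values on this scale, by 2.42-fold on soft gel and 1.98-fold on stiff gel. The deposited fold enrichment, which sets the pileup against a background value of each list, was 19.8 and 23.3 in selected cells on soft and stiff gel, against 14.9 and 17.8 in ancestral cells. Of 71596 regions with a peak in all 4 lists, 6.51% had a ratio over list medians at least as high as PCDHAC1 on soft gel and 6.87% on stiff gel.

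PCDHGC3, the C-type gene that follows the gamma genes, had start pileups of 220 and 249 in selected cells on soft and stiff gel, against 370 and 477 in ancestral cells. Over the list median these were 4.31 and 4.45 in the selected lists and 3.33 and 3.61 in the ancestral lists. The ratio was 1.29-fold on soft gel and 1.23-fold on stiff gel. The deposited fold enrichment was 15.3 and 18.4 in selected cells on soft and stiff gel, against 21.4 and 22.5 in ancestral cells, a log2 ratio of -0.49 and -0.29. On that scale the 71596 shared regions as a whole had a median log2 ratio of -0.76 on soft gel and -0.64 on stiff gel. PCDHGC3 thus lay above the typical region. Both scales divide a list by 1 value, so fold enrichment is not a separate check of this order. PCDHGC5, the last gene of the cluster, had start pileups of 78 and 65 in selected cells on soft and stiff gel, against 146 and 213 in ancestral cells, or 1.53 and 1.16 over the list median against 1.32 and 1.61. Its order between populations therefore differed between gels on this scale. Its log2 ratio of fold enrichment was -0.64 on soft gel, above the median of shared regions, and -1.06 on stiff gel, below it. PCDHAC2, whose start lies between PCDHAC1 and the alpha constant exons, had start pileups of 44 and 41 in selected cells on soft and stiff gel and no peak in either ancestral list. The selected values were under the list medians, at 0.86 and 0.73. PCDHGC4 had no peak in its window in any list, although its promoter had a GC content of 60.7%, close to that of PCDHGC3 (59%).

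Among beta genes, whose proteins lack the constant cytoplasmic tail, PCDHB13 had the highest start peak, with pileups of 142 and 148 in selected cells on soft and stiff gel against 233 and 313 in ancestral cells. PCDHB11 had 124 and 103 in selected cells on soft and stiff gel against 195 and 240 in ancestral cells. PCDHB9 had 100 and 116 in selected cells on soft and stiff gel, against 170 and 216 in ancestral cells. In all 3 genes the value over the list median was higher in selected than in ancestral cells on either gel, at most 1.38-fold. PCDHB10 had 96 and 80 in selected cells on soft and stiff gel, against 133 and 193 in ancestral cells. Over the list median it was 1.57-fold higher in selected cells on soft gel, and the ratio on stiff gel was 0.98-fold. By the deposited fold enrichment the log2 ratios of the 4 genes ran from -0.50 to -0.21 on soft gel and from -0.62 to -0.25 on stiff gel, above the medians of shared regions of -0.76 and -0.64.

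A further 3 beta starts were present in some lists. PCDHB2 had pileups of 61 and 63 in selected cells on soft and stiff gel, or 1.20 and 1.12 over the list median, and no peak in either ancestral list. PCDHB3 had 56 and 49 in selected cells on soft and stiff gel, against no peak and 82 in ancestral cells on soft and stiff gel. PCDHB8 had 61 and 38 in selected cells on soft and stiff gel, against no peak and 63 in ancestral cells on soft and stiff gel. The values of PCDHB3 and PCDHB8 in ancestral cells on stiff gel, 0.62 and 0.48 over the list median, were weak for that list, whose lowest pileup was 37. PCDHB8 and PCDHB13 have promoters identical in 93.8% of 259 aligned bases, with a longest identical run of 55, so reads of these 2 genes may be hard to place and their values are uncertain. The median identity over the 1081 pairs of member promoters was 34.5%. After that pair came PCDHGB4 and PCDHGB5, identical in 75.1% of 297 bases with a run of 78, then PCDHGB6 and PCDHGB7, in 56.2% with a run of 38. Reads of these genes may also be hard to place, so the lack of a peak at PCDHGB4, PCDHGB5 and PCDHGB6 is uncertain too.

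Among the gamma A and B genes, 4 had a start peak in at least 1 list, those of PCDHGB1 and PCDHGB2 well above the list medians and those of PCDHGA1 and PCDHGB7 near or below them. PCDHGB1 had pileups of 206 and 214 in selected cells on soft and stiff gel, against 395 and 581 in ancestral cells, or 4.04 and 3.82 over the list median against 3.56 and 4.40. PCDHGB2 had 164 and 191 in selected cells on soft and stiff gel, against 366 and 533 in ancestral cells, or 3.22 and 3.41 over the list median against 3.30 and 4.04. On stiff gel the ratio of selected to ancestral cells was 0.87-fold for PCDHGB1 and 0.84-fold for PCDHGB2 over the list median. The percentile of the peak within its list was instead higher in selected cells, by 1.59 and 1.16 points. PCDHGA1, the gamma gene nearest the beta cluster, had a start pileup of 53 in selected cells on soft gel and no peak on stiff gel, against 73 and 89 in ancestral cells on soft and stiff gel, or 1.04 over the list median against 0.66 and 0.67. PCDHGB7 had a start peak in ancestral cells on soft gel alone, with a pileup of 50, or 0.45 over the list median. The other 11 gamma A and 4 gamma B genes had no start peak in any list.

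**Figure D2:**
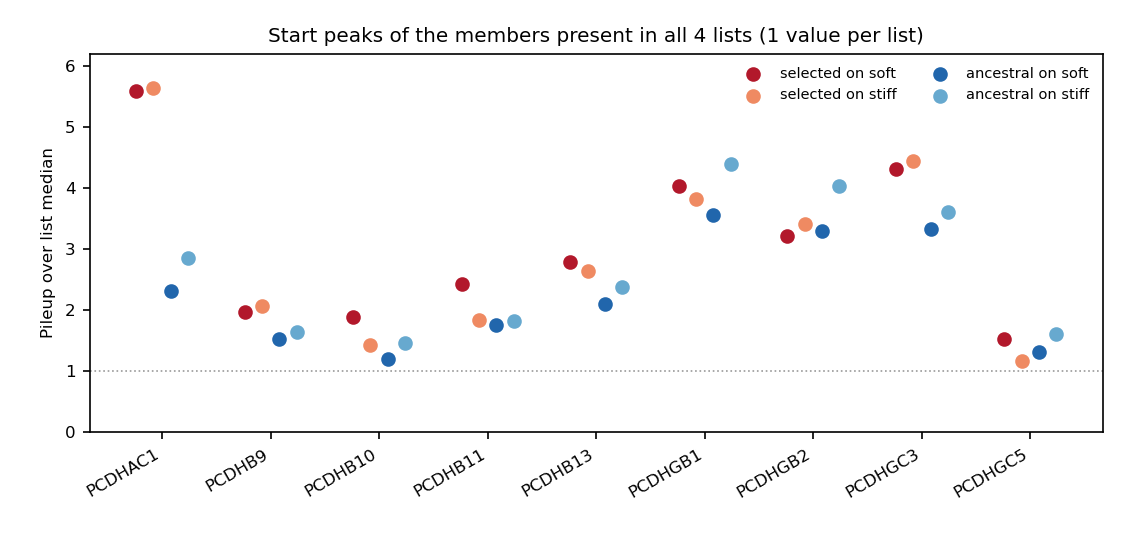
Pileup over list median at the start peaks of the 9 members open in all 4 lists, 1 point per list, with no error bars because each group has 1 list. PCDHAC1 lies at 5.59 and 5.64 in selected cells and at 2.31 and 2.86 in ancestral cells, while the other genes' selected and ancestral points lie closer together.

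Selected and ancestral cells were compared on soft gel because the study's design names that pair. A start peak was present in selected cells alone at 5 members (5.63% of all genes) and in ancestral cells alone at 1 member, PCDHGB7 (3.42%). The 5 were PCDHA8, PCDHAC2, PCDHB2, PCDHB3 and PCDHB8. For the 9 members open in all lists, the median log2 ratio of pileup over list median was 0.37, with 8 genes higher and 1 lower in selected cells. The median over 71596 regions shared by all 4 lists was 0.10. Of the 9, PCDHAC1 and PCDHB10 were at least 1.5-fold higher and none was 1.5-fold lower, against 22% and 8.49% of shared regions. Scaled over shared regions the median was 0.26. By deposited fold enrichment it was -0.49, with PCDHAC1 alone higher in selected cells, where shared regions had a median of -0.76. The sign of the ratio thus differed between scales. The 9 starts had a median above that of shared regions, and 8 of the 9 lay above it by fold enrichment. Each scale divides a list by 1 value, so members and shared regions shift almost alike. Their order could therefore hardly differ between scales, and the scales are not separate checks of it.

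On stiff gel a start peak was present in selected cells alone at 3 members (4.78% of all genes), PCDHA2, PCDHAC2 and PCDHB2, and in ancestral cells alone at 1 member (2.56%), PCDHGA1. The 9 members had a median log2 ratio of 0.017 over the list median, with 5 higher and 4 lower in selected cells, and shared regions had -0.05. PCDHAC1 alone was at least 1.5-fold higher and none was 1.5-fold lower, against 14.7% and 11.9% of shared regions. By deposited fold enrichment the median was -0.57 and that of shared regions -0.64, with 6 of the 9 above it.

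The gel comparison within each population gave few differences at starts. In selected cells a start peak was present on soft gel alone at 2 members (3.34% of all genes), PCDHA8 and PCDHGA1, and on stiff gel alone at 1 member (4.55%), PCDHA2. In ancestral cells a start peak was present on soft gel alone at 1 member (1.51%), PCDHGB7, and on stiff gel alone at 2 members (2.7%), PCDHB3 and PCDHB8. Among the 9 members open in all lists the median log2 ratio of soft over stiff gel was 0.08 in selected cells and -0.29 in ancestral cells. Shared regions had -0.04 and -0.20. None of the 9 differed by 1.5-fold in either population, against 2.74% of shared regions higher and 4.84% lower on soft gel in selected cells, and 0.936% and 9.18% in ancestral cells. The 4 comparisons share lists, so their values are not independent of each other.

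Another kind of peak lay inside the genes, away from the start, and 27 of 28 such peaks were in the selected lists. An interior peak, with its summit more than 500 and up to 2500 bp after the start, was present at 18 members in selected cells on soft gel (22.6% of all genes), 9 in selected cells on stiff gel (19.9%), 1 in ancestral cells on soft gel (15.9%) and 0 in ancestral cells on stiff gel (15.8%). As shares of the 53 members these were 34.0%, 17.0%, 1.89% and 0%. The exact 95% Clopper-Pearson intervals, for counting error alone, were 21.5 to 48.3% and 8.07 to 29.8% in the selected lists. In the ancestral lists they were 0.05 to 10.1% and 0 to 6.72%. Members are neighbours that share sequence, so they are not independent, and the intervals do not test the difference from the background shares. The interior kind was set apart after the data were seen. The 28 interior peaks belonged to 22 members, of which 13 had no start peak in any list. An interior peak without a start peak in the same list was present at 13 members in selected cells on soft gel (13.4% of all genes), 5 in selected cells on stiff gel (12.2%), 1 in ancestral cells on soft gel (11.2%) and 0 in ancestral cells on stiff gel (11.3%). No member peak lay more than 500 bp before a start.

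Between populations on soft gel, 18 members had an interior peak in selected cells alone (9.77% of all genes) and 1 in ancestral cells alone (3.01%). On stiff gel 9 had one in selected cells alone (7.46%) and 0 in ancestral cells alone (3.31%). Within selected cells 12 had one on soft gel alone (7.03%) and 3 on stiff gel alone (4.31%). Within ancestral cells 1 had one on soft gel alone (3.29%) and 0 on stiff gel alone (3.18%).

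All 28 interior summits lay 1498 to 2199 bp after the start. In the range from 1400 to 2200 bp, set after these positions were seen, lay 33.6% of the 3470 interior peaks of all genes in selected cells on soft gel and 33.3% to 34.1% in the other lists. In selected cells on soft gel the median position was 1952.5 bp, and in selected cells on stiff gel it was 1895 bp. The single ancestral interior peak, at PCDHGA10, lay at 2031 bp with a pileup of 35.

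**Figure D3:**
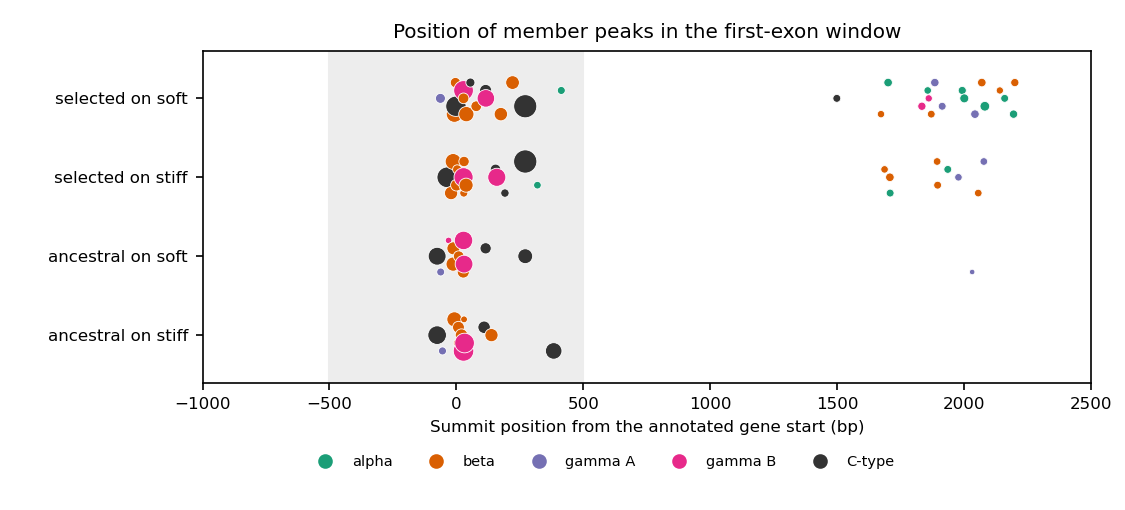
Summit position of each member peak from the annotated gene start (bp) by list; point area is proportional to pileup over list median, colour gives the subfamily, and grey marks 500 bp on each side of the start. Start peaks fill all 4 rows, while the interior group from 1498 to 2199 bp holds 27 peaks of the selected lists and 1 of the ancestral lists.

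These interior peaks were weak. In selected cells on soft gel their pileups ran from 28 to 50, with a median of 35.5, or 0.55 to 0.98 over the list median, where the lowest pileup of the list was 27. In selected cells on stiff gel they ran from 33 to 43, where the lowest of the list was 26. A −log10 q-value of at least 10 was reached by 1 of 18 and 0 of 9 interior peaks, against 64.2% and 67.3% of the interior peaks of all genes in those lists. The lowest pileups that the ancestral lists hold were 31 on soft gel and 37 on stiff gel, over medians of 111 and 132. The lowest fold enrichments were 1.93 and 1.98 in the selected lists on soft and stiff gel, against 1.85 and 1.79 in the ancestral lists. The interior peaks had fold enrichments of 2.00 to 3.52 in selected cells on soft gel and 2.50 to 3.23 in selected cells on stiff gel. The lowest values of both selected lists already exceeded those of both ancestral lists, so any selected peak would lie above the ancestral minima. Weak peaks were also more frequent in the selected lists as a whole, since peaks under a fold enrichment of 3.6 made up 50.1% and 42.0% of the selected lists on soft and stiff gel, against 29.6% and 31.0% of the ancestral lists. Library depth was not tested as a part of this difference.

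Alpha genes held the largest number of interior peaks on soft gel. In selected cells on soft gel 7 of 13 alpha genes (PCDHA2, PCDHA3, PCDHA4, PCDHA5, PCDHA7, PCDHA11 and PCDHA13) had one, and in selected cells on stiff gel 2 did (PCDHA1 and PCDHA3). No alpha gene had a peak of either kind in an ancestral list. PCDHA3 had the highest interior peak of the cluster, with pileups of 50 and 36 in selected cells on soft and stiff gel. Start peaks of alpha genes were limited to PCDHA2, with a pileup of 34 in selected cells on stiff gel, and PCDHA8, with a pileup of 34 in selected cells on soft gel. They lay 319 and 413 bp after the start, farther than every start peak of the beta and gamma genes.

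Beta genes had interior peaks at 5 of 16 members in each selected list, namely PCDHB2, PCDHB7, PCDHB9, PCDHB12 and PCDHB14 on soft gel and PCDHB2, PCDHB9, PCDHB11, PCDHB12 and PCDHB13 on stiff gel. PCDHB12, with pileups of 29 and 34 in selected cells on soft and stiff gel, is the gene without a start peak between PCDHB11 and PCDHB13. Gamma genes with an interior peak in selected cells were PCDHGA1, PCDHGA6, PCDHGA11, PCDHGB2 and PCDHGB7 on soft gel and PCDHGA6 and PCDHGA11 on stiff gel. PCDHAC2 was the C-type gene with an interior peak, at 1498 bp in selected cells on soft gel. Interior peaks in both selected lists were found at 6 members: PCDHA3, PCDHB2, PCDHB9, PCDHB12, PCDHGA6 and PCDHGA11. Their summits in the 2 lists lay between 23 and 513 bp apart.

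With start and interior peaks together, a member's window held a peak at 28 members in selected cells on soft gel (74.6% of all genes), 19 in selected cells on stiff gel (74.4%), 12 in ancestral cells on soft gel (70.2%) and 12 in ancestral cells on stiff gel (71.3%). On soft gel 17 members had a window peak in selected cells alone (6.56% of all genes) and 1, PCDHGA10, in ancestral cells alone (2.13%). On stiff gel 8 members had one in selected cells alone (5.06%) and 1, PCDHGA1, in ancestral cells alone (1.92%). Within selected cells 10 had one on soft gel alone (2.62%) and 1, PCDHA1, on stiff gel alone (2.45%). Within ancestral cells 2 had one on soft gel alone (1.14%) and 2 on stiff gel alone (2.27%). When each list was limited to its 109578 peaks of highest q-value rank, the length of the shortest list, the interior counts were 10, 9, 1 and 0 for selected cells on soft and stiff gel and ancestral cells on soft and stiff gel. With q-value ranks limited to the best 54789 peaks, no interior peak was left in any list and 9 start peaks remained in each. No peak was found in any list at 23 members (21.4% of all genes): PCDHA6, PCDHA9, PCDHA10, PCDHA12, PCDHB1, PCDHB4, PCDHB5, PCDHB6, PCDHB15, PCDHB16, PCDHGA2 to PCDHGA5, PCDHGA7 to PCDHGA9, PCDHGA12, PCDHGB3 to PCDHGB6 and PCDHGC4.

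The whole span with 10 kb on each side held 48 peaks in selected cells on soft gel, 35 in selected cells on stiff gel, 24 in ancestral cells on soft gel and 23 in ancestral cells on stiff gel. Per megabase this was 64.3, 46.9, 32.1 and 30.8, against 41.3, 37, 35 and 36.8 over chromosome 5. On soft gel 28 of the 48 selected peaks (58.3%, exact 95% interval 43.2 to 72.4) had no overlapping ancestral peak, against 35.8% of the whole list and 29.1% within 5 Mb of the cluster. Of the 24 ancestral peaks on soft gel 3 had no overlapping selected peak (12.5%, interval 2.66 to 32.4), against 21.7% of the list and 13.5% within 5 Mb. On stiff gel 15 of the 35 selected peaks were unshared (42.9%, interval 26.3 to 60.6), against 26.8% of the list and 17.9% within 5 Mb, and 1 of 23 ancestral peaks was unshared (4.35%), against 21.7% of the list and 16.6% within 5 Mb. The intervals cover counting error alone. Interior peaks made up a large part of the unshared selected peaks, since 18 of the 28 on soft gel and 9 of the 15 on stiff gel were interior.

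Between gels, 17 of 48 peaks of selected cells on soft gel (35.4%) had no partner on stiff gel, against 21.9% of the list and 19.2% within 5 Mb, and 5 of 35 on stiff gel (14.3%) had none on soft gel, against 15.1% and 14.4%. In ancestral cells 3 of 24 on soft gel (12.5%) and 2 of 23 on stiff gel (8.70%) had none, against 10.3% and 16.8% of the lists and 4.09% and 16% within 5 Mb. Merging the 4 lists on overlap gave 54 regions, of which 17 were at starts, 22 were interior and 15 were elsewhere. Regions present in all 4 lists made up 31.5% of the 54, against 43.7% of 164016 regions genome-wide. Regions in selected cells on soft gel alone made up 29.6% (13.1% genome-wide), and those in both selected lists alone made up 18.5% (9.72%). None of the 54 was in both ancestral lists alone, a pattern of 6.39% of regions genome-wide.

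**Figure D4:**
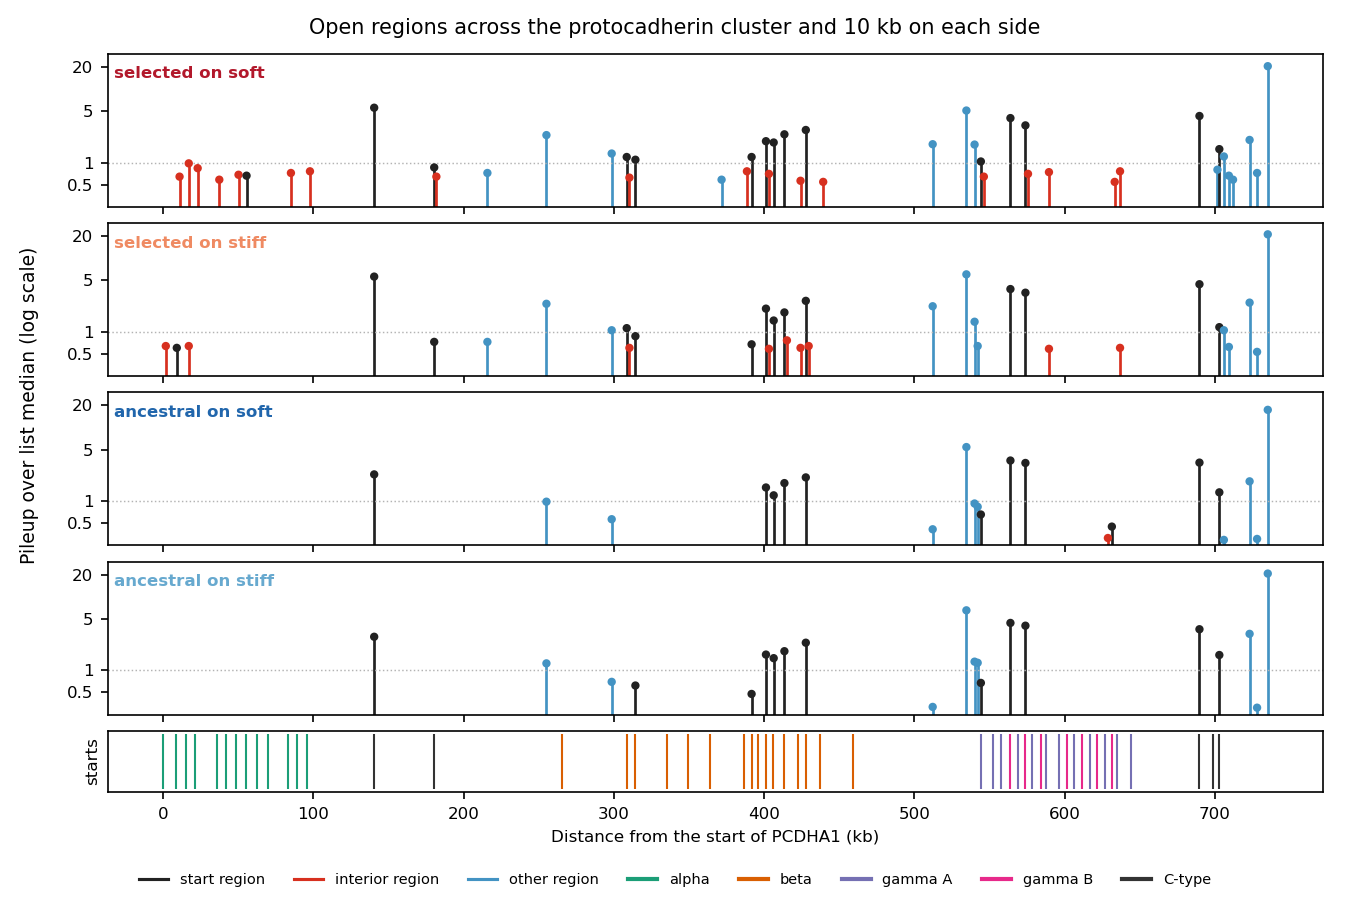
Pileup over list median (log scale) of the 54 regions by distance from the start of PCDHA1 (kb), 1 row per list, coloured as start, interior or other region; the bottom row marks the annotated starts by subfamily. The alpha genes at the left have peaks, most of them interior, in the selected rows and none in the ancestral rows, and the tallest line at the right end is the region in DIAPH1.

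Of the 15 regions away from starts and first exons, the one at chr5:141297942-141298753, 32.1 kb before PCDHGA1 and between the beta and gamma clusters, differed most between populations among those in all 4 lists. Its pileups were 91 and 125 in selected cells on soft and stiff gel, against 46 and 42 in ancestral cells on soft and stiff gel. The raw pileup itself was higher in selected cells, and over the list median it was 4.31-fold higher on soft gel and 7.02-fold higher on stiff gel. A ratio at least as high was found in 0.721% of the 71596 shared regions on soft gel and in 0.0223% on stiff gel. The ancestral peaks of this region were weak, since the lowest pileups of those lists were 31 on soft and 37 on stiff gel. Regions without an ancestral peak are not among the shared regions, so these shares leave them out. This region was singled out after its values were seen, and no annotated gene lies at its summit.

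A region at chr5:141040330-141041419, 28.9 kb after the shared end of the alpha genes and 10.1 kb before PCDHB1, had pileups of 121 and 135 in selected cells on soft and stiff gel, against 109 and 164 in ancestral cells. Over the list median it was 2.42-fold and 1.94-fold higher in selected cells on soft and stiff gel, ratios that 6.57% and 7.22% of shared regions reached. A region 2.2 kb before PCDHGA1, at chr5:141327866-141328555, ran the other way. It had no peak in selected cells on soft gel and a pileup of 36 on stiff gel, against 93 and 167 in ancestral cells on soft and stiff gel, or 0.64 over the list median on stiff gel against 0.84 and 1.27. The broad region at the shared end of the gamma genes, chr5:141507154-141513462, had 104 and 140 in selected cells on soft and stiff gel, against 206 and 413 in ancestral cells. Over the list median these were 2.04 and 2.50 in the selected lists and 1.86 and 3.13 in the ancestral lists, so the order between populations differed between gels. Within ancestral cells its pileup over list median on soft gel was 0.59-fold that on stiff gel.

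Genes next to the members gave a measure of the surroundings. TAF7, a subunit of the general transcription factor TFIID whose start lies in the gap before the gamma genes, had start pileups of 261 and 339 in selected cells on soft and stiff gel, against 602 and 862 in ancestral cells. Over the list median TAF7 was 0.94-fold on soft gel and 0.93-fold on stiff gel. The region in DIAPH1, an actin-nucleating formin gene after the gamma end, had pileups of 1045 and 1186 in selected cells on soft and stiff gel against 1929 and 2724 in ancestral cells, or 1.18-fold and 1.03-fold over the list median. The 400 shared regions within 5 Mb had a median log2 ratio of 0.09 on soft gel. SLC25A2, the other gene in that gap, had no strand in the tables and was not used here.

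Regulators known to act on the cluster were open in all groups with few exceptions. Of 13 such genes 11 had a usable start, and 9, 10, 10 and 10 of them had a start peak in selected cells on soft and stiff gel and ancestral cells on soft and stiff gel. CTCF, which binds the promoters and enhancers of the cluster, had a start pileup of 895 and 1513 in selected cells on soft and stiff gel, against 1963 and 3069 in ancestral cells, or 17.5 and 27.0 over the list median against 17.7 and 23.3. NIPBL, the loader of cohesin, and the zinc finger gene WIZ had no start peak in selected cells on soft gel. REST, a repressor of neuronal genes, had a start peak in that list alone, with a pileup of 80. WIZ had an interior peak in that list, and REST had an interior peak in each of the other lists. The windows of WIZ and REST thus held a peak in every list. Among 12 non-clustered protocadherin genes 10 had a usable start, and 2 of them, PCDH9 and PCDH18, had a start peak in each of the 4 lists.

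Median GC content of the promoter windows went with the number of lists with a start peak, as a description over promoters that share sequence. The median was 47.3% for the 7 members open in all lists with a promoter entry, 43.2% for the 8 open in 1 to 3 lists and 38.5% for the 32 without a start peak, against 58.3% for all promoters. The ranges overlapped, at 36.7 to 66%, 34.3 to 63% and 32.3 to 60.7% in that order. The median ratio of observed CpG to that expected from base content ran the other way, at 0.52, 0.57 and 0.61, against 0.58 for all promoters. PCDHAC1 had 66% and 27 CpG dinucleotides in 300 bases, the most of any member. PCDHB10 had a start peak in every list with 36.7% and 5 CpG dinucleotides, and PCDHGC4 had none with 23 CpG dinucleotides.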

How the data were processed

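Per the labels' protocols, libraries were made from 16 samples on aliquots of nuclei with a commercial ATAC-seq kit. MACS2 2.2.7.1 and Bowtie2 2.4.5, with GRCh38, stand in the submitters' processing notes beside Trimmomatic 0.36 and the quality tools MultiQC 1.1 and FastQC 0.11.4. Not given in the sources used here are the way libraries were pooled into 1 list, read filters, the treatment of reads with several placements and any transposase shift. Per the file headers, each peak has a pileup signal at its summit, a fold enrichment and −log10 p- and q-values. The deposited pileup signal is a whole number without depth scaling. The deposited fold enrichment is a ratio of the pileup to a background that is a single value per list. The deposited −log10 q-value was used for stricter thresholds.

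Peaks were assigned to a member when the summit lay from 1000 bp before to 2500 bp after its start (RefSeq, GRCh38.p14), and to the nearest start where windows overlapped. Each pileup was divided by its list's median. Each list skips 1106 to 1310 of its peak numbers. None is skipped in the cluster or 50 kb around it, and other genes with a skipped number in the window were left out of backgrounds. Peaks were shared on an overlap of at least 1 bp. With 1 list per group no test was made. Exact Clopper-Pearson 95% intervals are printed for some of the shares. The members and lists were chosen with earlier results of these data known. Genes were named by rule: members with a window peak in some lists and not others, the highest by pileup over list median, C-type members and neighbours. Peak assignment and overlap were tested on simulated peaks. Python 3.11.15, numpy 2.4.6, pandas 2.3.3 and scipy 1.17.1 were used.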

Additional observations from a re-analysis of the deposited data

Results flagged for a closer look

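PCDHB8 and PCDHGA1 had start peaks whose direction differed between groups under the same contrast, and neither difference was tested, since each group has 1 list. At PCDHB8 the pileup over list median was 1.76-fold higher on soft than on stiff gel in selected cells (pileups of 61 and 38), while ancestral cells had no peak on soft gel and a pileup of 63 on stiff gel. Part of the reads of PCDHB8 may belong to PCDHB13, whose promoter is nearly the same, and this was not tested. At PCDHGA1 the value was 1.58-fold higher in selected than in ancestral cells on soft gel (pileups of 53 and 73 over list medians of 51 and 111), while on stiff gel selected cells had no peak and ancestral cells had a pileup of 89. By deposited fold enrichment PCDHGA1 on soft gel had 3.73 in selected cells against 4.28 in ancestral cells, a log2 ratio of -0.20, where the regions shared by all 4 lists had a median of -0.76.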

How the results depend on the processing

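No paired analysis was possible because the deposited lists hold 1 value per group and carry no replicate, and no replicate could be left out. Limiting the windows to 500 bp on each side left 15 members with a peak in selected cells on soft gel, against 28. With −log10 q of at least 10 this count was 14, and 11 in selected cells on stiff gel, against 19, and with the best 54789 peaks per list it was 9 in both. Start counts were 9 in both selected lists under the last limit. Interior counts in selected cells on soft gel were 1 at −log10 q of at least 10, 10 with 109578 peaks per list and 0 with 54789. In selected cells on stiff gel, and in ancestral cells on soft gel, they were 0 at −log10 q of at least 10 and 0 with 54789. At −log10 q of at least 10 the span held 22 and 19 peaks in selected cells on soft and stiff gel. Unshared selected peaks at that threshold were 6 on soft and 3 on stiff gel. Ancestral peaks unshared on stiff gel were then 3. Between gels they were 3 on soft and 0 on stiff gel in selected cells, and 0 on soft gel in ancestral cells. By deposited fold enrichment the median log2 ratio of the 9 starts was -0.49 on soft and -0.57 on stiff gel, and PCDHB10 on soft gel was -0.21, against 0.65 over the list median. Shared regions had medians of -0.76 and -0.64 on that scale. A further 74 alternative counts were within 1.5 times the reported ones, and 14 alternative median log2 ratios differed from theirs by less than 1.5-fold. Of the 14, the ratio of soft to stiff gel in selected cells changed sign, to -0.15 by deposited fold enrichment, where shared regions had -0.26. The 4 medians in percentile points had the signs of the log2 ratios. The fold enrichment and shared-region scales were added after seeing the data, as were separate start and interior counts. How many libraries or reads stand behind a pileup is unknown, so no correction by read totals could be made. The background value behind the fold enrichment was 13.5 and 12.6 in selected cells on soft and stiff gel. In ancestral cells it was 16.3 and 20.2. Over this background, 8 of the 9 starts were lower in selected cells on each gel and 1 was higher. Shared regions then had median log2 ratios of -0.75 on soft and -0.60 on stiff gel. Whether the background value follows depth was not tested. Weak peaks near each list's lowest pileup are the least certain.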

Other observations

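Further regions of the span lay outside starts and first exons. In the last stretch of the gamma cluster, chr5:141491412-141492928 lies 3138 bp after the start of PCDHGC5. It had pileups of 62 and 59 in selected cells on soft and stiff gel, against 33 and no peak in ancestral cells on soft and stiff gel. Close by, chr5:141494571-141495770 had 34 and 35 in selected cells on soft and stiff gel and no peak in ancestral cells. In the alpha cluster chr5:141001474-141002337, which lies in the annotated gene PCDHACT between PCDHAC2 and the shared end, had 37 and 41 in selected cells on soft and stiff gel and no peak in ancestral cells. The pseudogene PCDHB17P held a peak with a pileup of 30 in selected cells on soft gel alone. Between the beta and gamma clusters, chr5:141325925-141326653 had 90 and 77 in selected cells on soft and stiff gel, against 103 and 173 in ancestral cells, or 1.90-fold and 1.05-fold over the list median.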
